A study of Mus musculus with 41 samples.

Results

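The set held 9 genes of the bone morphogenetic protein (BMP) pathway, taken by symbol: the ligands Bmp2 and Bmp4, the antagonists Fst and Grem1, the target genes Id1, Id2 and Id3, and the inhibitory Smads Smad6 and Smad7. A gene counted as a member where the same Ensembl identifier stood in the tables of all 3 experiments. By that rule 8 of the 9 genes were members, of 14133 genes listed in any table and 12694 listed in all 3. Bmp2 stood only in the table of the recombinant-ligand experiment, so it is described apart and enters no count of members.

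The RNA-seq libraries came from MEEC, a line of wild-type mouse embryonic endocardial cells, that is, cells from the inner lining of the heart, and number 41 in 13 groups. In the first experiment MEEC were laid over OP9 stromal cells for 6 h or 24 h (n = 3 per group), and the OP9 cells carried GFP or 1 of the Notch ligands Dll4 and Jag1. In the second, MEEC were kept for 24 h with DMSO (the vehicle) or with RO4929097 at 20 µM and were then placed over OP9-GFP for 6 h (n = 4). RO4929097 inhibits gamma-secretase, the protease that cuts activated Notch receptors. In the third, MEEC grew without OP9 cells for 24 h and then a further 14 h without serum (n = 3). Those groups were DMSO without ligand, rDLL4 or rJAG1 bound to the dish with DMSO, and rDLL4 or rJAG1 with 20 µM RO4929097. All groups share the same cell line, OP9 cells were at 90% confluence, and MEEC were at 50% for 6 h and at 25% for 24 h. The labels do not say that OP9 cells were removed before RNA was taken or whether the inhibitor stayed on during co-culture. Nor do they say what coated the dishes of the DMSO group in the third experiment. No group received the inhibitor without ligand in the third experiment.

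BMP ligands bind paired type I and type II receptors, which phosphorylate Smad1, Smad5 and Smad9. These join Smad4 and switch on genes such as Id1, Id2 and Id3, whose products bind E proteins and keep them off DNA. Smad6 and Smad7 are induced by the same signal and feed back to block it, while follistatin (Fst) and gremlin 1 (Grem1) hold ligands away from their receptors outside the cell. In the developing heart, BMP and Notch signals act together on the endocardium of the forming valves.

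Promoter windows of 250 bases before the start site are shown for 3 members, because adding the inhibitor raised Bmp4 on both ligands and Smad6 on rJAG1, while Grem1 lay lower on both without passing. The window of Id2, which also rose on both, holds exon bases and is not printed. The windows come from RefSeq on GRCm38.p6, where 5 members had an entry, and hold no exon of these genes. Each is on the minus strand of its chromosome and is printed 5′ to 3′ along the gene, at chr14:46390670-46390919 for Bmp4, chr9:64022060-64022309 for Smad6 and chr2:113758649-113758898 for Grem1. Capitals mark 3 motifs searched on both strands: GGCGCC and GGAGCC, GC-rich letters that BMP Smads can bind, and TGGGAA, the core letters of sites for the Notch partner RBPJ.
Bmp4: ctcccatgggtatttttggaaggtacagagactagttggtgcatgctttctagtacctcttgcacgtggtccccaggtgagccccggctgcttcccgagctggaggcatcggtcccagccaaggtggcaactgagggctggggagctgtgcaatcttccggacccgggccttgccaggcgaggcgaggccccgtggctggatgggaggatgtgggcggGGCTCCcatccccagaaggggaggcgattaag
Smad6: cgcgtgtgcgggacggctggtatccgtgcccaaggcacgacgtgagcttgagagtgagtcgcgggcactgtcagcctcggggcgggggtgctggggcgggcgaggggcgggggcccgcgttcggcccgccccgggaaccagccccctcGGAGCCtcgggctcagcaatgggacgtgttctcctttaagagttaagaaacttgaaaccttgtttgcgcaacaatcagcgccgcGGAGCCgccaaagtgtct
Grem1: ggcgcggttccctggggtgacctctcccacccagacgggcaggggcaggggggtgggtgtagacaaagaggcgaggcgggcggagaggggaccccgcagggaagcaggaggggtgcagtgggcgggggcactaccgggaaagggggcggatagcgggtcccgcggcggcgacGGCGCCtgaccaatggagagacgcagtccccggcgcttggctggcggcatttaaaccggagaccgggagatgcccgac
The Bmp4 window held GGAGCC 1 time, on the opposite strand (as GGCTCC), and the Smad6 window held it 2 times. The Grem1 window held GGCGCC 1 time. TGGGAA had 0 matches in all 3 windows, and no marked motifs overlapped. Of 32851 promoter windows of the same length, 26.0% held GGAGCC, 9.59% held GGCGCC and 21.6% held TGGGAA, so these letters are common.

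Libraries held 14.1 to 16.8 M, 19.4 to 25.2 M and 11.2 to 34.2 M reads in the 3 experiments, and values below are normalized signal, in reads per M reads of a scaled library. Each table was scaled on its own, so tests stay within a table. Known Notch targets moved with the labels. Of the 5 in the list (Hey1, Hey2, Heyl, Hes1 and Nrarp), 3 rose over OP9-Jag1 at 6 h, 4 rose over OP9-Jag1 and 3 over OP9-Dll4 at 24 h, and 5 rose on each recombinant ligand. Over OP9-Dll4 at 6 h 0 passed, and 4 did in the fit blocked on replicate number within each time. The inhibitor lowered 4 of the 4 listed over OP9-GFP and 5 of 5 on each ligand. Of 10 endothelial and endocardial markers, 6, 5 and 6 were listed in the 3 tables. Pecam1, Cdh5, Tie1 and Emcn of that list were not among the listed genes. Of the OP9 stromal list, Pparg, Adipoq, Lepr and Lum were not among them either, and the list's summed signal without OP9 cells (2647 to 4641) overlapped that in co-culture (2922 to 5867).

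Some libraries stood apart from others of their group. At 6 h the libraries numbered 2 did so in all 3 co-culture groups. Their chi-square per gene against libraries 1 and 3 lay between 12.9 and 32.3, while libraries 1 and 3 of the same groups stood at 5.48 to 7.18. Among the recombinant-ligand libraries, DMSO library 3 had a chi-square per gene of 35.3 and 52.5 against the other two, which stood at 11.1. It held the lowest value of the 15 libraries for 6 of the 8 members. On rJAG1, library 2 stood at 17.9 and 22.2 against libraries 1 and 3, which stood at 6.91. Calls of members that turn on these libraries are given with and without them.

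The members lie on several chromosomes of build GRCm38 and are all protein coding. The first ligand, Bmp4, spans chr14:46383520-46390669 (minus strand), and Bmp2 spans chr2:133552159-133562885 (plus). Among the antagonists, Fst spans chr13:114452290-114458951 (minus) and Grem1 chr2:113746164-113758646 (minus). Id1 spans chr2:152736251-152737410 (plus), Id2 chr12:25093799-25097140 (minus) and Id3 chr4:136143497-136145755 (plus). Smad6 spans chr9:63953076-64022059 (minus) and Smad7 chr18:75367529-75395935 (plus). Values here cover the exons of each gene as a whole.

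Per kilobase of exon, the members differed widely in level. Over OP9-GFP at 24 h, normalized signal per kilobase was 71.4 ± 4.93 for Id1 (SD, n = 3), 47.8 ± 4.64 for Id3 and 24.0 ± 2.96 for Bmp4. Below these, Id2 stood at 11.9 ± 2.33, Smad6 at 11.9 ± 0.997, Smad7 at 9.04 ± 1.11, Fst at 2.83 ± 0.546 and Grem1 at 0.454 ± 0.0661. Id2 and Smad6 did not differ beyond their spread, and each other step in that order exceeded the larger SD of its pair. The targets Id1 and Id3 were thus the most abundant members, and the antagonists the least.

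The recombinant-ligand experiment held the clearest changes. Adding the inhibitor to rJAG1 raised the ligand gene Bmp4, the target Id2 and the inhibitory Smad6, while Bmp4 and Id2 also rose when it was added to rDLL4. On rJAG1 with inhibitor, 3 of 8 members passed the limma test at an adjusted p under 0.05, all higher, against 18.4% of all genes in either direction and 9.58% higher. On rDLL4 with inhibitor 2 of 8 passed, both higher, against 10.7% of all genes in either direction and 4.91% higher. The median log2 fold change of the 8 members was 0.33 and 0.41, beside 0.01 for all genes in each comparison. Neither ligand alone moved any of the 8 past the threshold against DMSO, a point that depends on DMSO library 3 and, for rJAG1, also on rJAG1 library 2.

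Bmp4, which encodes a secreted BMP ligand, read 33.9, 44.4 and 31.7 on rJAG1 and 70.9, 66.5 and 72.5 on rJAG1 with inhibitor. The 2 groups did not overlap, and all 3 libraries with inhibitor lay above all 3 without it. The log2 fold change of signal + 1 was 0.93 ± 0.16 (SE, limma adjusted p = 0.000678), and the group means stood 1.91-fold apart. On rDLL4 it read 39.1, 43.0 and 32.2, and with inhibitor 63.1, 64.9 and 66.7. Again the groups did not overlap (0.76 ± 0.16, limma adjusted p = 0.00554). Leaving out each of the 6 libraries in turn kept both calls, with 1.07 for rJAG1 when its library 2 was dropped (adjusted p = 0.000427). The change with inhibitor did not differ detectably between the ligands (difference -0.17, 95% interval -0.65 to 0.32, limma adjusted p = 1). In that test of the difference 0 of 8 members passed, against 0.0149% of genes, with 0 at an unadjusted p under 0.05 and 0 in edgeR.

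Against vehicle, Bmp4 was lower on both ligands without passing. DMSO libraries read 58.6, 62.2 and 37.9, so the third lay among the ligand libraries and the groups overlapped. The log2 fold change was -0.50 ± 0.16 for rJAG1 (limma adjusted p = 0.0657, which became 0.0187 in the fit blocked on replicate number, where 15.1% of genes passed) and -0.44 ± 0.16 for rDLL4 (adjusted p = 0.208). Without DMSO library 3, rJAG1 gave -0.72 ± 0.13 (limma adjusted p = 0.00129) and rDLL4 -0.66 ± 0.13 (adjusted p = 0.00602). Without rJAG1 library 2, rJAG1 against DMSO gave -0.64 (adjusted p = 0.0261). With ligand and inhibitor together, Bmp4 stood above DMSO in every library, by 0.43 ± 0.16 for rJAG1 and 0.32 ± 0.16 for rDLL4, neither past the threshold (limma adjusted p = 0.335 and 0.456). Both ligand comparisons share the same DMSO libraries.

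Bmp2, the other ligand, went the opposite way, at a level near the limit of detection. It read 0.222, 0.186 and 0.140 in DMSO, which is 2 to 6 reads a library. On rDLL4 it read 1.24, 0.740 and 0.666 (7 to 33 reads), and on rJAG1 1.58, 1.31 and 1.56 (20 to 25 reads). With inhibitor it read 0.291, 0.191 and 0.113 on rDLL4 and 0.143, 0.0741 and 0.0745 on rJAG1, which is 1 to 6 reads. All 6 libraries with a ligand and no inhibitor lay above the other 9.

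A gene was listed in this table only where at least 3 libraries reached a signal of 1. Bmp2 reached it in 4 of 15 libraries, all 4 of them on ligand without inhibitor. Its being listed thus depended on the groups compared, and its tests describe a gene selected for being high there. The adjusted p values below are therefore descriptions only and no support for a difference between those groups. On the log2(signal + 1) scale, which understates change at this level, Bmp2 was 1.07 ± 0.15 higher on rJAG1 than in DMSO (limma adjusted p = 0.000178). On rDLL4 it was 0.66 ± 0.15 higher (adjusted p = 0.0219). That call was lost without DMSO library 1, DMSO library 2 or rDLL4 library 1 (limma adjusted p = 0.0567, 0.0692 and 0.127), and also when only the 2 groups were fitted (0.171). Adding the inhibitor changed Bmp2 by -1.18 ± 0.15 on rJAG1 (adjusted p = 3.84e-05) and by -0.64 ± 0.15 on rDLL4 (adjusted p = 0.0105, or 0.0641 without rDLL4 library 1). Between rDLL4 and rJAG1, Bmp2 did not pass after adjustment over all genes (limma adjusted p = 0.477). Its log2 difference was -0.41, with an unadjusted 95% interval of -0.73 to -0.10, and the libraries did not overlap.

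Of the antagonists, Fst, which binds activins as well as BMPs, did not move in this experiment. It read 27.6, 38.5 and 14.3 in DMSO, the widest spread of its groups here, and group means ran from 21.8 to 26.8. Grem1 was low throughout. It read 3.51, 1.184 and 1.195 on rJAG1 and 1.175, 0.667 and 0.571 with inhibitor, and the groups met at their edge without overlapping. The change was -0.64 ± 0.27 (limma adjusted p = 0.117, and 0.0101 in the blocked fit, where 27.1% of genes passed), lower in 3 of 3 numbered pairs. On rDLL4 it read 3.24, 1.69 and 1.73, and with inhibitor 1.14, 0.785 and 0.865, again without overlap (-0.71 ± 0.27, adjusted p = 0.121). The blocked fit gave a limma adjusted p of 0.00794 there, but not every numbered pair of that comparison correlated over 0.1. In each of the 5 groups library 1 was the highest.

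Id2, one of the 3 Id targets, was the one that passed. It read 25.3, 39.4 and 28.1 on rJAG1 and 50.9, 57.5 and 54.1 with inhibitor, so the groups did not overlap. Its change of 0.81 ± 0.20 passed (limma adjusted p = 0.00909), called in 6 of 6 fits without 1 library. On rDLL4 it read 33.9, 40.8 and 32.4, and with inhibitor 61.7, 55.8 and 62.6 (0.74 ± 0.20, adjusted p = 0.0242). That second call held in 1 of 6 such fits. It was lost without rDLL4 library 1 or 3 and without any library of rDLL4 with inhibitor, with adjusted p between 0.0529 and 0.0951. Against DMSO, rDLL4 with inhibitor was 0.66 ± 0.20 higher (limma adjusted p = 0.132, 0.0355 in the blocked fit, where 4.38% of genes passed). That difference was 0.87 without DMSO library 2 (adjusted p = 0.0293) and 0.39 without DMSO library 3 (adjusted p = 0.353).

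Id1 and Id3 leaned the same way with smaller changes and wider spread. Id1 read 54.2, 57.2 and 39.7 on rJAG1 and 77.1, 67.1 and 58.5 with inhibitor, with no overlap (0.43 ± 0.25, limma adjusted p = 0.269, and 0.0319 in the blocked fit). Id3 read 86.0, 85.3 and 67.3 on rJAG1 and 99.0, 94.8 and 83.3 with inhibitor, where the groups overlapped (0.22 ± 0.25, adjusted p = 0.598). On rDLL4 the differences were 0.40 ± 0.25 for Id1 and 0.45 ± 0.25 for Id3 (adjusted p = 0.374 and 0.307). The E proteins that Id proteins bind (Tcf3, Tcf4 and Tcf12) had 0 of 3 called in any comparison of this experiment.

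The inhibitory Smads leaned in opposite directions with inhibitor, only Smad6 on rJAG1 passed, and the difference between them was not tested. Smad6, which mainly blocks BMP receptors, read 30.9, 33.2 and 33.3 on rJAG1 and 40.4, 45.2 and 48.2 with inhibitor, without overlap. The log2 fold change of 0.44 ± 0.14 passed (limma adjusted p = 0.0335), but held in 1 of 6 fits without 1 library. It was lost without any rJAG1 library and without library 2 or 3 of rJAG1 with inhibitor, with adjusted p between 0.0558 and 0.130. On rDLL4 it read 31.6, 35.8 and 39.2, and with inhibitor 47.3, 45.7 and 49.4 (0.41 ± 0.14, adjusted p = 0.0684). Smad7, which also blocks receptors for transforming growth factor beta, read 44.6, 50.0 and 47.0 on rJAG1 and 42.7, 44.4 and 39.1 with inhibitor. Its groups did not overlap on either ligand, and it leaned lower with inhibitor (-0.16 ± 0.10 on rJAG1 and -0.25 ± 0.10 on rDLL4, adjusted p = 0.292 and 0.138).

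In all, 6 of 8 members did not overlap between ligand with and without inhibitor, on rJAG1 and on rDLL4 alike, against 35.1% and 33.5% of all genes. On rJAG1 4 of these lay above and 2 below, against 17.4% and 17.7% of genes, and on rDLL4 likewise 4 and 2, against 15.9% and 17.6%. For ligand alone against DMSO, 1 of 8 did not overlap on rJAG1 (Smad7, higher by 0.25 ± 0.10, limma adjusted p = 0.161) and 0 of 8 on rDLL4, against 20.3% and 15.1% of genes. Calls against DMSO were 0 of 8 for both ligands, against 9.58% and 3.5% of genes, with 2 and 1 at an unadjusted p under 0.05 and 0 of 8 in edgeR for each. Without DMSO library 3, rJAG1 lowered 3 of 8, namely Bmp4, Id2 (-0.57 ± 0.15, adjusted p = 0.0206) and Smad6 (-0.36 ± 0.09, adjusted p = 0.0181), against 14.1% of genes, and rDLL4 lowered 1 of 8, Bmp4, against 5.65%.

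**Figure D1:**
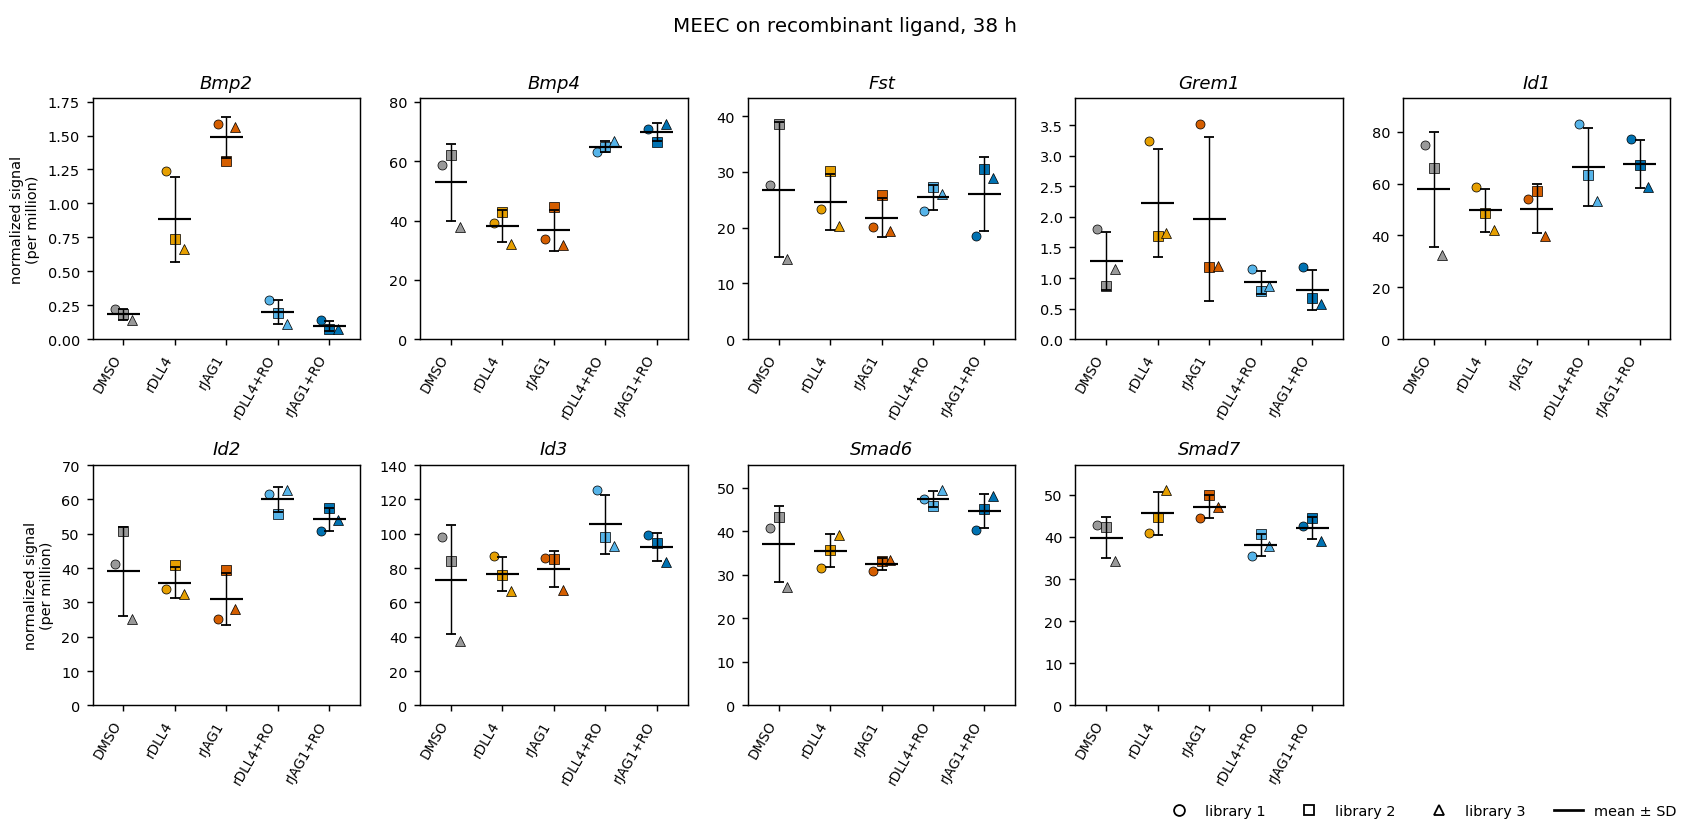
Normalized signal of Bmp2 and the 8 members (y axes, linear, per M reads) in each library of MEEC in DMSO, on rDLL4 or rJAG1, or on ligand with RO4929097 (RO); symbols give the library number, bars the mean and whiskers the SD (n = 3). Bmp4, Id2 and Smad6 stand higher in both groups with inhibitor than on the matching ligand alone. Bmp2 is high only on ligand without inhibitor, but its being listed depended on those groups. DMSO library 3 is low for 6 members.

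Endothelial markers moved in part with these changes. Their summed signal ran from 66.3 to 79.8 on rJAG1, from 93.2 to 109.2 on rJAG1 with inhibitor and from 74.9 to 121.1 in DMSO. With inhibitor on rJAG1, 1 of the 6 listed markers rose (Tek) and 3 fell (Kdr, Nfatc1 and Eng). The summed signal of the OP9 stromal list was 4080 to 4641 on rJAG1 and 2916 to 3194 with inhibitor, although no OP9 cells were present. On rDLL4 the endothelial sum ran from 77.0 to 102.2 and the stromal sum from 3937 to 4268. With inhibitor they ran from 106.5 to 122.3 and from 2861 to 3115. There the inhibitor raised 0 of the 6 endothelial markers and lowered 1, where 10.7% of all genes passed (18.4% on rJAG1). Although the endothelial sum was higher with inhibitor, most markers were not. Log2 fold changes lay above 0 for 2 of 6 on rJAG1 and 1 of 6 on rDLL4 (medians -0.33 and -0.30). The part of either list in the results for the BMP genes was not tested. In bulk RNA, fewer cells of a kind and less RNA per cell cannot be told apart.

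rDLL4 and rJAG1 gave no detectable difference for the members, with 0 of 8 called and 0 of 8 without overlap, against 0.231% and 12.2% of genes (0 of 8 had an unadjusted p under 0.05, and edgeR also called 0). Log2 differences, rDLL4 minus rJAG1, ran from -0.05 to 0.22. For Bmp4 the 95% interval was -0.28 to 0.40 and for Id2 -0.20 to 0.64, so moderate differences in either direction are within the error. Ligand with inhibitor against DMSO called 0 of 8 for each ligand, against 0.94% for rJAG1 and 1.4% for rDLL4, with 2 and 3 at an unadjusted p under 0.05 and 0 in edgeR. Bmp4 and Id2 did not overlap DMSO for rJAG1 with inhibitor (2 of 8, against 13.7% of genes), and Bmp4, Id2 and Smad6 did not for rDLL4 with inhibitor (3 of 8, against 15.3%).

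Over OP9-GFP, 24 h of inhibitor before co-culture lowered Fst. It read 29.5, 20.9, 22.9 and 19.4 after DMSO and 13.04, 9.71, 13.4 and 10.1 after the inhibitor. The groups did not overlap, and the means stood 2.01-fold apart. Fst changed by -0.94 ± 0.14 on the log2 scale (limma adjusted p = 0.0124), lower in 4 of 4 numbered pairs, and was called in 7 of 8 fits without 1 library (0.0502 without DMSO library 3 of this experiment). Fst was the 1 of 8 members called, against 0.909% of genes. On recombinant ligand the same inhibitor left Fst within its spread (0.22 ± 0.27 on rJAG1 and 0.06 ± 0.27 on rDLL4, adjusted p = 0.617 and 0.925). Culture, serum and time differ between these experiments, and the difference between them was not tested.

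Id3 and Smad6 were higher after the inhibitor without passing. Id3 read 89.8, 92.0, 80.6 and 86.4 after DMSO and 102.3, 94.5, 111.8 and 114.0 after the inhibitor (0.27 ± 0.07, limma adjusted p = 0.126). Smad6 read 25.4, 24.5, 23.6 and 19.0, and then 30.1, 26.1, 28.4 and 28.2 (0.28 ± 0.09, adjusted p = 0.259). For both, every library with inhibitor lay above every library with DMSO. With Fst, 3 of 8 members did not overlap, against 6.43% of genes.

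The remaining 5 overlapped. Bmp4 averaged 37.8 ± 5.53 after DMSO and 39.2 ± 10.8 after the inhibitor (0.02 ± 0.19, 95% interval -0.39 to 0.43). That interval does not reach the rise of 0.93 seen when the inhibitor was added to rJAG1, but the experiments also differ in culture and duration. Id2 differed by 0.19 ± 0.08 (limma adjusted p = 0.415) and Id1, Grem1 and Smad7 by 0.11, 0.19 and -0.09 (adjusted p between 0.708 and 0.859). The OP9 stromal list summed to 3337 to 4268 after DMSO and 2964 to 3651 after the inhibitor, and its part in these values was not tested.

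**Figure D2:**
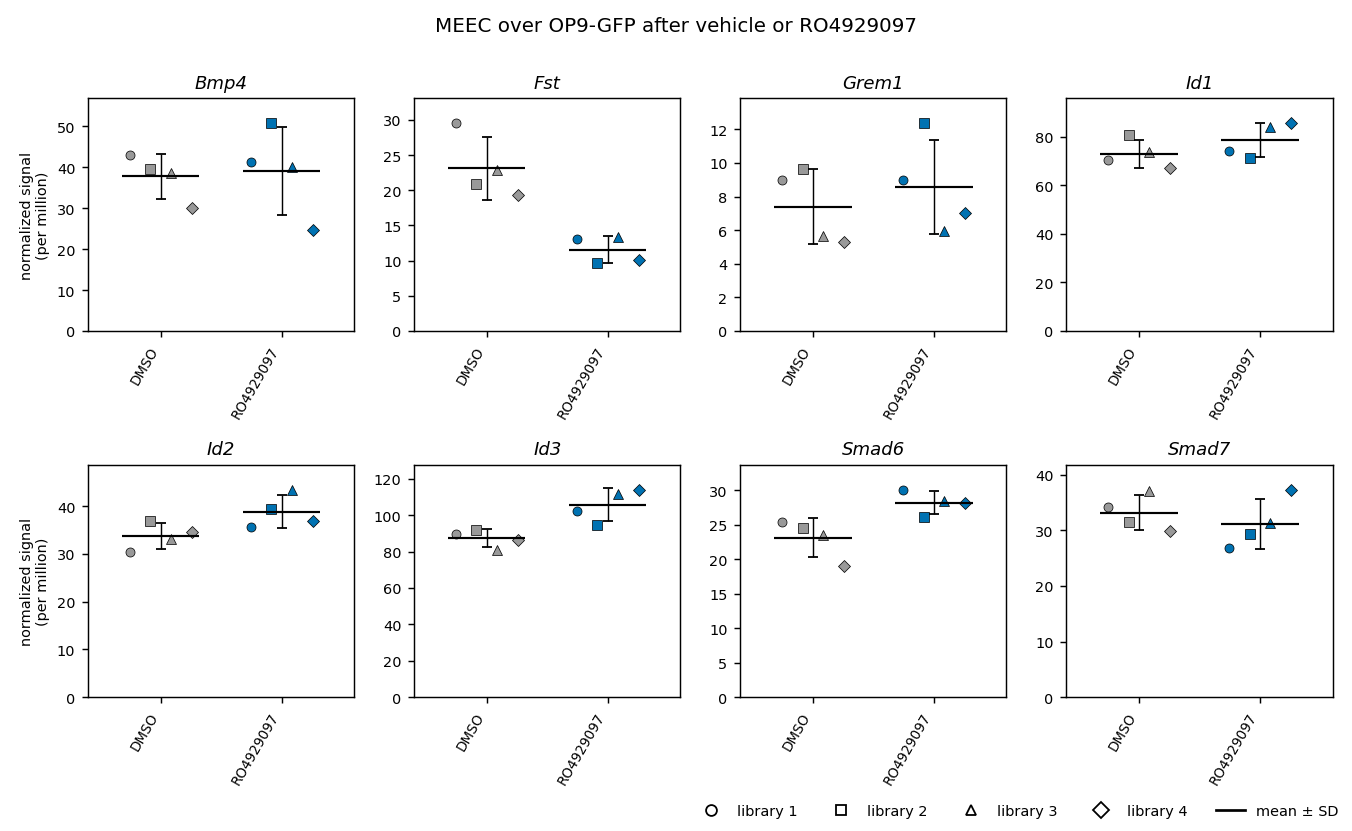
Normalized signal of the 8 members (y axes, linear, per M reads) in the 4 libraries of MEEC given DMSO and the 4 given RO4929097 before 6 h over OP9-GFP; symbols give the library number, bars the mean and whiskers the SD. Fst lies lower in all 4 inhibitor libraries (9.71 to 13.4) than in all DMSO libraries (19.4 to 29.5), and Id3 and Smad6 lie higher without overlap.

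In co-culture with ligand-expressing OP9 cells no member passed against OP9-GFP in the fit of all 6 groups. At 24 h Fst read 11.3, 11.8 and 15.9 over OP9-GFP, 23.4, 20.6 and 22.9 over OP9-Dll4 and 23.3, 22.0 and 22.2 over OP9-Jag1. Every library with a ligand lay above every OP9-GFP library, and the ligands overlapped each other. The log2 fold change was 0.76 ± 0.44 over OP9-Jag1 and 0.75 ± 0.44 over OP9-Dll4. Neither passed (limma adjusted p = 0.644 and 0.912) in that fit, whose shared spread includes the 6 h libraries numbered 2. That fit also left same-numbered libraries unpaired, although they deviated together at 24 h (correlations 0.21 to 0.27 for OP9-Jag1 and 0.20 to 0.29 for OP9-Dll4).

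With 1 block per replicate number over both times, both still missed the threshold (limma adjusted p = 0.301 and 0.465). With the replicate number as a block within each time, both passed (adjusted p = 1.78e-05 and 4.68e-05), against 10.9% and 5.82% of genes called in that fit. Fitting only the groups compared gave adjusted p = 0.0133 and 0.0314. Without the 6 h libraries numbered 2, chosen after seeing the data, OP9-Jag1 gave 0.0238 and OP9-Dll4 0.0521. Both comparisons share the OP9-GFP libraries. Calls in the fit of all groups were 0 of 8 for each ligand at 24 h, against 2.02% of genes for Jag1 and 0.511% for Dll4, with 0 of 8 at an unadjusted p under 0.05 and 0 in edgeR. Fst was the 1 of 8 that did not overlap, a share no higher than the 17.3% and 13.5% of all genes.

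At 6 h no member was called for either ligand, against 0.101% of genes for Jag1 and 0.0072% for Dll4, with 0 of 8 at an unadjusted p under 0.05 and 0 in edgeR. Groups overlapped for 8 of 8, where 9.3% and 6.65% of genes did not. Fst read 12.2, 47.2 and 19.4 over OP9-GFP, 15.8, 56.6 and 23.7 over OP9-Dll4 and 19.4, 54.6 and 26.6 over OP9-Jag1. In each group library 2 was far the highest, and within each number both ligands lay above OP9-GFP. Grem1 read 4.17, 8.40 and 6.01 over OP9-GFP and 2.50, 5.92 and 4.08 over OP9-Jag1, lower in 3 of 3 pairs. With the replicate number as a block within each time, Fst (0.42 ± 0.09, limma adjusted p = 0.0144) and Grem1 (-0.49 ± 0.13, adjusted p = 0.0465) passed over OP9-Jag1, against 3.36% of genes. Adjusted p was 1 for each without a block, and 0.827 and 0.637 with 1 block per number over both times. Without the 6 h libraries numbered 2, Fst stood at 0.53 ± 0.21 and Grem1 at -0.51 ± 0.28 (limma adjusted p = 0.825 and 1). Leaving out 1 library moved Fst to between 0.01 (OP9-GFP library 1 or OP9-Jag1 library 2 dropped) and 0.94 (OP9-GFP library 2 dropped). For Grem1 the range was -0.73 (OP9-Jag1 library 2 dropped) to -0.24 (OP9-Jag1 library 1 dropped).

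Bmp4 showed the same split by library at 6 h, with 66.2, 64.6 and 61.1 in the libraries numbered 2 and 38.4 to 48.7 in the other 6. Its largest difference between any ligand and OP9-GFP at either time was -0.09 ± 0.19. The Id genes and Smad6 and Smad7 differed from OP9-GFP by at most 0.22 on the log2 scale, the largest being Id3 over OP9-Jag1 at 24 h (0.22 ± 0.14, limma adjusted p = 0.738). OP9-Dll4 and OP9-Jag1 differed in 0 of 8 members at 6 h and at 24 h, against 0% and 0.0288% of genes, with 0 at an unadjusted p under 0.05 and 0 in edgeR. All 8 overlapped at both times, where 5.28% and 6.81% of genes did not. In interaction tests of whether a ligand effect differed between 6 h and 24 h, 0 of 8 members passed for Jag1 and for Dll4, against 0.0072% of genes for each, 0 at an unadjusted p under 0.05 and 0 in edgeR. The intervals are wide: the Jag1 effect on Grem1 went from -0.49 to 0.21, a difference of 0.70 (95% interval -0.17 to 1.56, limma adjusted p = 1, or 0.0718 with the block within each time). Cardiomyocyte markers summed higher over OP9-Dll4 at 24 h (summed signal 43.8 to 79.1, against 29.5 to 33.2 over OP9-GFP), and the OP9 stromal list summed to 3852 to 5449 over OP9-Dll4, 4108 to 5867 over OP9-Jag1 and 2922 to 4321 over OP9-GFP. The part of either in these values, Fst included, was not tested.

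Between 6 h and 24 h over OP9-GFP, Grem1 fell. It read 4.17, 8.40 and 6.01 at 6 h and 1.59, 1.91 and 2.14 at 24 h, and the groups did not overlap. The change was -1.28 ± 0.29 (limma adjusted p = 0.00636), kept in 6 of 6 fits without 1 library and without all the 6 h libraries numbered 2 (-1.07, adjusted p = 0.0120). It was the 1 of 8 members called, against 19.2% of genes, and Id2 was the other of 2 members without overlap, against 37.6%. Id2 read 36.8, 39.3 and 40.4 at 6 h and 23.4, 34.8 and 29.2 at 24 h (-0.42 ± 0.18, adjusted p = 0.109), and Id3 differed by -0.31 ± 0.14 (adjusted p = 0.126). MEEC were seeded at 50% confluency for 6 h and 25% for 24 h, so time and density cannot be told apart. The OP9 stromal list summed to 3654 to 4547 at 6 h and 2922 to 4321 at 24 h. Of its 9 listed genes 0 lay higher at 24 h, and 1 was called lower. Their median log2 fold change was -0.40, beside -0.01 for all genes. The part of that list in the fall of Grem1 was not tested.

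**Figure D3:**
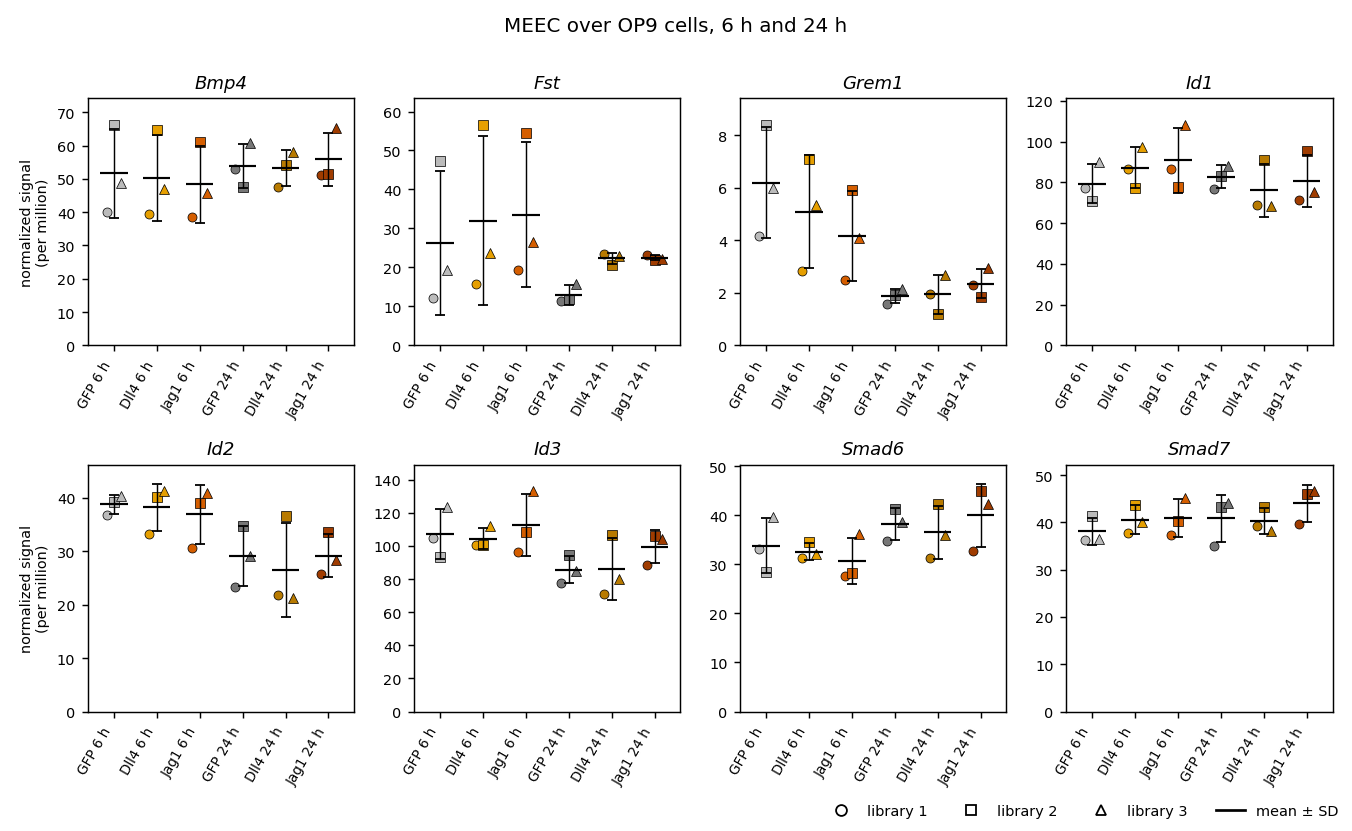
Normalized signal of the 8 members (y axes, linear, per M reads) in each library of MEEC over OP9-GFP, OP9-Dll4 or OP9-Jag1 at 6 h and 24 h; symbols give the library number, bars the mean and whiskers the SD (n = 3). The libraries numbered 2 are high for Bmp4, Fst and Grem1 in all 3 groups at 6 h, Fst at 24 h is higher over both ligands than over OP9-GFP, and Grem1 is lower at 24 h than at 6 h over OP9-GFP.

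The other genes of the pathway came from a list of 67 (16 ligands and related factors, 12 receptors and co-receptors, 18 antagonists and modulators, 11 Smads and their regulators, and 10 response genes). Of these 42, 41 and 44 were listed and tested in the 3 experiments. When the inhibitor was added to rJAG1, 7 rose and 14 fell of 44 (medians of log2 fold change -0.09 for the list and 0.01 for all genes), where 18.4% of all genes passed. When it was added to rDLL4, 6 rose and 11 fell (median -0.15), where 10.7% of all genes passed. The largest rises were Bmp3, an atypical ligand that opposes BMP signals (2.06 ± 0.25 on rJAG1 and 0.99 ± 0.25 on rDLL4), and Atoh8, a target of BMP signals in endothelium (1.40 ± 0.18 and 1.14 ± 0.18). Smad9, a receptor-activated Smad, rose by 1.38 ± 0.18 and 1.03 ± 0.18. All 6 of these changes had a limma adjusted p of 0.0167 or less.

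The largest falls were in secreted factors. Inhbb, which encodes an activin subunit, changed by -2.11 ± 0.37 on rJAG1 and -2.01 ± 0.37 on rDLL4. Fstl3, a follistatin relative that binds activins, changed by -1.79 ± 0.12 and -1.53 ± 0.12. Bmper, a secreted BMP modulator, changed by -1.51 ± 0.08 and -1.32 ± 0.08. All 6 passed, with limma adjusted p of 0.00214 or less. Of the 10 antagonists and modulators tested, 5 fell and 0 rose with inhibitor on each ligand. Of all genes, 18.4% passed in either direction on rJAG1 and 10.7% on rDLL4. The member Fst passed on neither ligand.

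The comparisons of ligand alone with DMSO share the ligand libraries with those above, so their values are given side by side only. Against DMSO, rJAG1 raised 10 and lowered 4 of 44, where 9.58% of all genes passed. Inhbb (1.51 ± 0.37), Fstl3 (1.45 ± 0.12) and Bmper (1.17 ± 0.08) rose most, and Bmp3 (-1.24 ± 0.25), Gdf6 (-0.93 ± 0.23) and Smad9 (-0.74 ± 0.18) fell most. rDLL4 raised 4 and lowered 0, led by Fstl3 (1.00 ± 0.12), Bmper (0.91 ± 0.08) and Runx2 (0.53 ± 0.14), where 3.5% of genes passed, or raised 9 and lowered 1 in the blocked fit (6.47% of genes). rDLL4 and rJAG1 differed in 0 of 44 (0.231% of genes). Against DMSO, rJAG1 with inhibitor lowered 1 (Gdf6, -1.16 ± 0.23) and raised 0 (0.94% of genes), or lowered 3 and raised 3 in the blocked fit (2.9%). rDLL4 with inhibitor raised 2 (Smad9 and Atoh8) and lowered 4 (1.4% of genes), led by Gdf6 (-1.37 ± 0.23), Fstl3 (-0.53 ± 0.12) and Bmper (-0.41 ± 0.08).

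In co-culture fewer genes of the list passed. Over OP9-Jag1 at 24 h, 2 of 42 rose, Inhbb (0.74 ± 0.13, limma adjusted p = 0.00613) and Runx2 (0.35 ± 0.08), and 0 fell, where 2.02% of all genes passed. Over OP9-Dll4 at 24 h 1 rose, Inhbb (0.75 ± 0.13), where 0.511% of genes passed. With the replicate number as a block within each time 11 rose and 5 fell for Jag1 (10.9% of genes) and 5 and 4 for Dll4 (5.82%). At 6 h 0 of 42 passed for either ligand (0.101% of genes for Jag1 and 0.0072% for Dll4). In that same block Inhbb passed at 6 h for Jag1 (0.40, limma adjusted p = 0.000576) and for Dll4 (0.35, adjusted p = 0.00398), and Crim1 was lower for Jag1 (-0.27, adjusted p = 0.00649), against 3.36% and 1.17% of genes. Over OP9-GFP the inhibitor moved 0 of 41 (0.909% of genes), or raised 2 (Atoh8 and Smad9) and lowered 7 in the blocked fit (3.29%). Over OP9-GFP at 24 h against 6 h, 10 rose and 2 fell, where 19.2% of genes passed. The rises were led by Nog (0.99 ± 0.20), Gdf6 (0.77 ± 0.13) and Crim1 (0.54 ± 0.10), and the falls were Id4 (-1.27 ± 0.26) and Bmp6 (-0.44 ± 0.12).

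**Figure D4:**
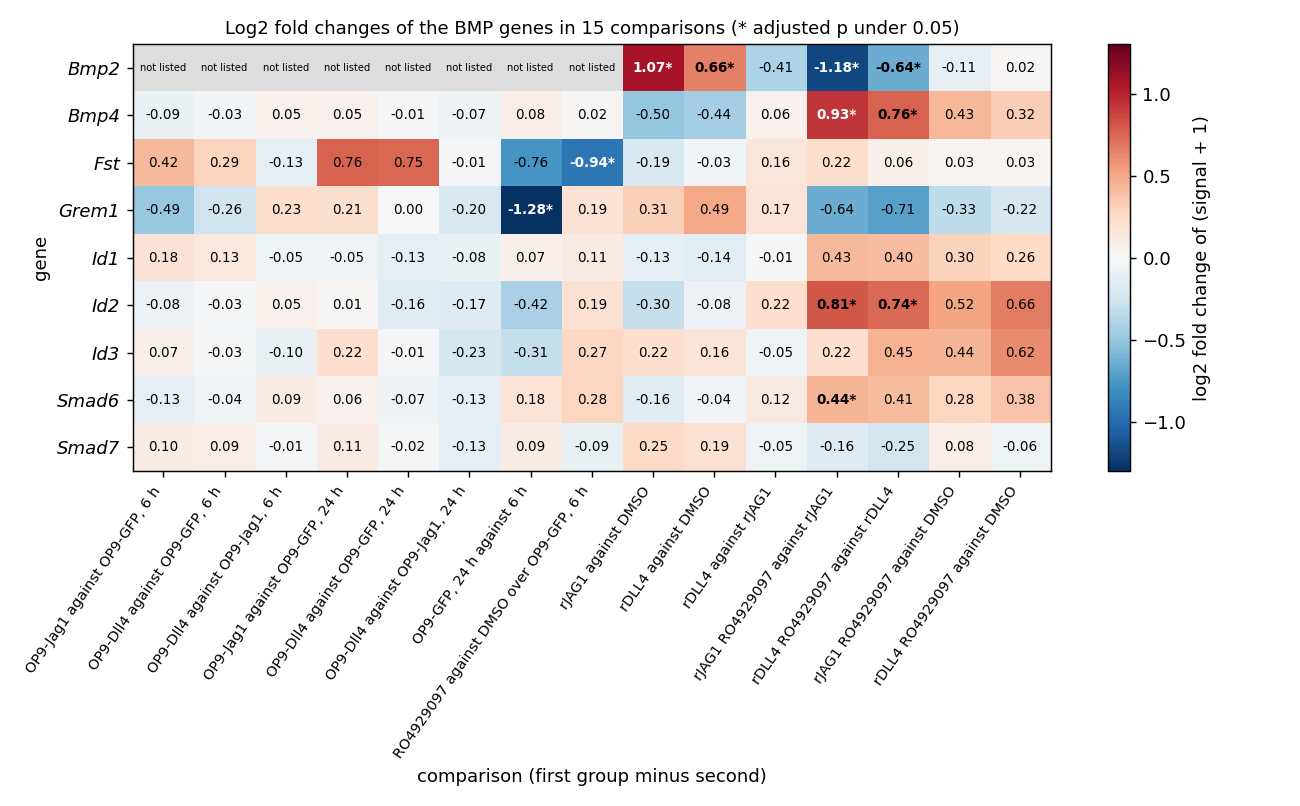
Log2 fold changes of signal + 1 (colour and printed value, first group minus second) for Bmp2 and the 8 members in 15 comparisons; an asterisk marks a limma adjusted p under 0.05, and grey cells are tables that do not list Bmp2. Among the 8 members, Bmp4 and Id2 are marked for the inhibitor on both ligands and Smad6 on rJAG1, Fst for the inhibitor over OP9-GFP and Grem1 for 24 h against 6 h. Bmp2 is marked for each ligand against DMSO and for the inhibitor on each ligand, but its being listed depended on those groups.

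Across the 13 group means, centred within each table, the members formed a loose set rather than one pattern. Pearson's r was 0.87 for Id1 with Id2, 0.83 for Id2 with Id3 and 0.72 for Id1 with Id3. Bmp4 correlated with Smad6 (0.81), Id1 (0.78) and Id2 (0.66) and opposite to Smad7 (-0.61) and Grem1 (-0.60). Fst lay between -0.40 (with Smad6) and 0.30 (with Grem1), and at 0.01 with Bmp4. These values are descriptions, because the groups share libraries' scaling, control samples and the libraries that stood apart.

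The gene whose group means were most like those of each member was taken from 10294 genes with a mean signal of at least 5 in all 3 tables. It was St8sia1 for Bmp4 (r = 0.97), Gm12940 for Fst (0.91), Cyb561d2 for Grem1 (0.98) and Spry1 for Smad7 (0.94). For the remaining members it was Fam76a for Id1 (0.93), Plekha6 for Id2 (0.98), Taf6 for Id3 (0.97) and Abcc5 for Smad6 (0.98), all over 13 groups. A best match among so many genes over 13 points is high by selection.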

How the data were processed

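Per the labels' protocols, total RNA was made into barcoded RNA-seq libraries. Tools in the submitters' processing notes are FastQC, cutadapt, RSEM and limma, with build GRCm38 and no versions, while the strand setting and annotation release are not given in the sources used here. Each experiment has 1 table of normalized signal, which the authors deposited. Reads per gene were recovered from it, whole for 100% of values (within 0.01 reads), so depth is known. A gene with no reads could still hold up to 3 by counting error alone, and 3 reads equal a signal of 0.179 to 0.221 (OP9 co-culture), 0.119 to 0.158 (inhibitor before co-culture) or 0.0859 to 0.266 (recombinant ligand). Reads of overlapping genes cannot be told apart.

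Tests used limma 3.58.1 (R 4.3.3) on log2(signal + 1), all groups of a table in 1 fit, with Benjamini-Hochberg adjustment over all its genes (13886, 12984 and 13407). Adjusted p values come from that fit unless another is named, and a call is an adjusted p under 0.05. Error after ± is SD for signal and SE for fold changes. edgeR 4.0.16 on the recovered reads, other pseudocounts, filters and scalings, library weights, the replicate number as a block and leaving out each library were alternatives. The main fit was also run on simulated independent counts with known changes. Those counts held no effect shared by replicate number and no libraries set apart. They therefore do not tell how the fit handles either.

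The members and lists were chosen with earlier results of these data known. Named genes are all members, Bmp2, and the 3 largest called changes per direction of the pathway list. The labels do not tell whether replicate libraries are separate cultures, and p-values cover the spread between libraries alone, which may be technical. No pair of libraries agreed within sampling noise (chi-square per gene 5.45 to 52.5 over 45 pairs). Same-numbered libraries deviated together (correlation over 0.1 in every pair) in all pairwise comparisons but OP9-GFP at 24 h against 6 h (lowest 0.06) and rDLL4 with and without inhibitor (lowest 0.08). Elsewhere the numbers were taken to pair the samples. The main fit held group means only and did not use that pairing. Fits blocked on the number are given as alternatives. Symbols were those of the deposited co-culture table, and positions came from a GENCODE annotation of GRCm38.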

Additional observations from a re-analysis of the deposited data

How the results depend on the processing

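Counts of members called (of 8) changed by more than 1.5 times as follows, with the share of all genes called under the same setting in brackets. With the replicate number as a block within each time, Jag1 at 6 h gave 2 (3.36%) and Jag1 and Dll4 at 24 h gave 1 each (10.9% and 5.82%), all from 0. With 1 block per number over both times these counts were 0 (0.591%, 4.52% and 1.78%). Fitting only the groups compared gave 1 for Jag1 and 1 for Dll4 at 24 h (2.24% and 0.72%, from 0) and 5 for rDLL4 with against without inhibitor (15.3%, from 2). Without the 6 h libraries numbered 2, chosen after seeing the data, Jag1 at 24 h gave 1 (3.28%). OP9-GFP at 24 h against 6 h gave 0 among genes with a mean signal of at least 5, which leaves out Grem1. It gave 3 with library weights (32.6%) or with the replicate block (32.7%, from 1). The block also called Id2 and Id3 (limma adjusted p = 0.0153 and 0.0472). Same-numbered libraries correlated at only 0.06 to 0.10 in that comparison, so the numbers were not taken to pair its samples. Library weights gave 4 for rJAG1 and 2 for rDLL4 against DMSO (21.2% and 13.8%, from 0), 4 for rDLL4 with against without inhibitor (19.3%), and 1 for rJAG1 and for rDLL4 with inhibitor against DMSO (13.4% and 13.5%, from 0). With the replicate block, rJAG1 against DMSO gave 1 (15.1%), rJAG1 with against without inhibitor 5 (27.1%, from 3) and rDLL4 with inhibitor against DMSO 1 (4.38%). For rDLL4 with against without inhibitor, same-numbered libraries correlated at 0.401, 0.0999 and 0.0778, so not every pair exceeded 0.1. The numbers were therefore not taken to pair those samples, although all 3 correlations were positive. There the replicate block also called Grem1 (limma adjusted p = 0.00794). The cause of these changes was not tested. Leaving out 1 library gave 0 to 1 for the inhibitor over OP9-GFP, 0 to 3 for rJAG1 and 0 to 1 for rDLL4 against DMSO, 2 to 3 and 1 to 2 for the inhibitor on rJAG1 and rDLL4, and 0 to 1 for rDLL4 with inhibitor against DMSO. The other 279 counts stayed within 1.5 times, and of 335 values for single genes 295 kept their side of the threshold, 24 came to pass, 16 no longer passed and 0 reversed. Rescaling moved the median of all genes by at most 0.042 (log2).

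Depth limits Grem1 (11 to 289 reads a library) and Bmp2 (1 to 33); the other members had at least 159 reads in every library. Groups of 3 or 4 libraries limit the rest.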
